A study of Mus musculus with 24 samples.

Results

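H3K27ac peaks were described at 8 autosomal genes of the dystrophin-glycoprotein complex and its laminin and integrin partners, Lama2, Dag1, Itga7, Sgca, Sgcb, Sgcd, Utrn and Dtna. The genes were chosen by their known place in the complex, with earlier results of these data known. Of 20021 autosomal protein-coding genes with a curated RefSeq transcript, 8 were members. A peak was assigned to a member when it overlapped the gene body by 1 bp or lay within 10 kb of a curated RefSeq transcription start. These windows covered 2.07 Mb, out of 1098 Mb for the windows of all such genes.

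The peaks came from isolated quadriceps myofibers of male and female C57BL/6 mice, and H3K27ac, an acetylation of histone H3 found at active enhancers and promoters, was measured by chromatin immunoprecipitation and sequencing (ChIP-seq). For each sex there was a group that received vehicle (DMSO) and 3 groups that received weekly prednisone, a synthetic glucocorticoid, at 1 mg/kg. Treated mice were taken 4, 6 or 8 days after the last of 5 weekly injections, given over 4 weeks from 10 weeks of age. In each group, 2 libraries of H3K27ac and 1 of input (unprecipitated) chromatin stood behind 1 pooled peak list, which gave 8 lists. The number of animals behind a library was not stated in the labels, and no value for a single library was used. The groups therefore had no replicate error, no difference between them was tested, and intervals given here cover counting error only.

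The dystrophin-glycoprotein complex links the actin cytoskeleton of a muscle fiber to the basement membrane around it. Laminin outside the fiber binds dystroglycan and the integrin receptor, the sarcoglycans steady dystroglycan in the membrane, and dystrophin or its relative utrophin, with dystrobrevin, completes the link on the inside. Loss of several of these proteins causes muscular dystrophies, for which glucocorticoids are given, and utrophin can stand in for dystrophin.

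The sequences below come from regions described in the results at these genes and were limited to stretches outside exons. They are given 5′ to 3′ on the strand of the gene (the minus strand for each) in RefSeq GRCm38.p6 (mm10). Capitals mark matches to 4 motifs searched on both strands. Among them were ACANNNTGT, a binding sequence of the glucocorticoid receptor, and the MEF2 consensus. The others were CANNTG, the general E-box, which is not particular to myogenic factors, and TTCCGG, the N-box known from synaptic genes. The first pair is from Utrn. A stretch of the upstream region that held a peak in all 8 lists is contrasted with the bases before the curated start. Those bases lay under a peak at female day 6 only. The upstream stretch, chr10:12868646-12868754, lay under a peak along its full length in 5 of the 8 lists. It lies before a predicted RefSeq start and is intronic to longer predicted transcripts. The bases before the curated start are chr10:12861736-12861985.
Utrn upstream region: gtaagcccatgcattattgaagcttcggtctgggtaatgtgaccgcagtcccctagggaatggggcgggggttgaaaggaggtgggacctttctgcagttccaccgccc
Utrn curated start: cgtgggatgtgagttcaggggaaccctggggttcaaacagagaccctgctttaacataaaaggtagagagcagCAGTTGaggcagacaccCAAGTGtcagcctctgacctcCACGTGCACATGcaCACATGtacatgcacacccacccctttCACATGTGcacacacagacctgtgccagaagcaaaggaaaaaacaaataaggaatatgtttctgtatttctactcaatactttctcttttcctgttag
The next pair lies before the curated starts of Dag1 (chr9:108263978-108264208) and Sgca (chr11:94976328-94976577), the members with a peak at the start in all 8 lists.
Dag1 start: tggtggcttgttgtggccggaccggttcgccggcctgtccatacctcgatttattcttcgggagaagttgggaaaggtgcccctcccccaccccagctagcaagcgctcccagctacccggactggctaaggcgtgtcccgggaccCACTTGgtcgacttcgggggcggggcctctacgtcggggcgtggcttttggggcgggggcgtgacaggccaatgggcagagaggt
Sgca start: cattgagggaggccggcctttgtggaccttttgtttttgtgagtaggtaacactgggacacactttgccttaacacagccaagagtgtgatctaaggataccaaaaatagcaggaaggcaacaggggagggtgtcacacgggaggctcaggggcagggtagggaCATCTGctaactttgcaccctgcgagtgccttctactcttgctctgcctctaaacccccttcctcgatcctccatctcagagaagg
The last set is from introns, 300 bp at the center of female day 4 peaks that had no vehicle peak and were present at days 6 and 8. These are Utrn chr10:12814390-12814689, Dag1 chr9:108230326-108230625 and chr9:108251175-108251474, both in regions found in treated females and in no other list, and Sgcd chr11:47371614-47371913.
Utrn intron: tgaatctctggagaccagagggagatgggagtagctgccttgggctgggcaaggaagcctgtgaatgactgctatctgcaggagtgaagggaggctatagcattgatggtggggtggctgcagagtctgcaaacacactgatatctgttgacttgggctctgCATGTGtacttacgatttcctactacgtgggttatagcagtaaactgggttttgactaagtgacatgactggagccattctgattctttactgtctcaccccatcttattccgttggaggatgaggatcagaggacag
Dag1 intron, distal: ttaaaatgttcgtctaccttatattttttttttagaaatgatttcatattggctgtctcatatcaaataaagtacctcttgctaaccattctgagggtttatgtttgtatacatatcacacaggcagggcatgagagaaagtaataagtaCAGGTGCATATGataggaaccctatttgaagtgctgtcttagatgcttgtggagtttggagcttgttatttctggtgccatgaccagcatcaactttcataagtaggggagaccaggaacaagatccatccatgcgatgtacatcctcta
Dag1 intron, proximal: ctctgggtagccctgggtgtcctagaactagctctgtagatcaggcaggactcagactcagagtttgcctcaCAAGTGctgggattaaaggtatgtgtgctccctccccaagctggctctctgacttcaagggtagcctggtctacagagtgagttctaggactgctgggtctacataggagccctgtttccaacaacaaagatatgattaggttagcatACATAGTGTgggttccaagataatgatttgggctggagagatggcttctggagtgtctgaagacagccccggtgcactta
Sgcd intron: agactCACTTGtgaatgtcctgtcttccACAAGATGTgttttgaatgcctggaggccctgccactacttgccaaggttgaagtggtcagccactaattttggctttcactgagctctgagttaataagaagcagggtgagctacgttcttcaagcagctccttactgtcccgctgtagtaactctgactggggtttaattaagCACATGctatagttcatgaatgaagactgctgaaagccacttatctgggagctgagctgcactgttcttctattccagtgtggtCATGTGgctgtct

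In the Utrn region with a peak in all 8 lists, the center of the bases shared by all lists (chr10:12869254-12869553) lies in predicted exons and had 76.0% G or C and 38 CG dinucleotides in 300 bp, above the CG number of 93.2% of promoters. The printed stretch of 109 bp in that region had 57.8% G or C and 4 CG dinucleotides. The 300 bp around the curated Utrn start had 46.0% G or C and 2 CG dinucleotides, above 11% of promoters. The median promoter had 57.0% and 14. The Dag1 promoters were CG rich (30 and 47 CG dinucleotides), whereas Sgca had 4 and Lama2 had 1.

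The lists differed in depth and length. H3K27ac depth was lowest in males at day 4 (7.52 M tags) and 27.5 to 50.5 M tags in the other groups. The lists held 17482 peaks (male day 4) to 123249 peaks (female day 6), and 5.39% (male day 6) to 47.3% (female day 6) of the tags lay in peaks. Of 7 myofiber marker genes, between 3 (male day 4) and 7 (female day 4) had a peak within 1 kb of a start. Ckm, Tnnt3 and Mylpf had one in all 8 lists. Markers of other cells were also marked. Of 4 endothelial markers, all 4 had a start peak in the male vehicle, male day 6 and treated female lists and 1 in each of the others, and their summed start tags ran from 7.17 (male day 8) to 1148 (female day 6) per 10 M. Summed start tags of the 7 myofiber markers ran from 114 (male day 4) to 4016 (female day 6) and those of the 4 fibroblast markers from 0 (male day 8) to 342 (female day 6). Smooth muscle markers reached 257 and Schwann cell markers 438 at female day 6, where the 4 immune markers reached 259, although Ptprc and Adgre1 had no start peak in any list. The 3 satellite cell markers had no start peak in males or vehicle females and a sum of 49.8 at female day 8, when Pax7 had one. The 3 adipocyte markers reached 67 at female day 8, with no start peak at Adipoq in any list. The sum of every one of these marker lists was highest at female day 6 or day 8. So were the summed start tags of the 8 members, at 904 and 1013 against 81.6 to 486 in the other lists. The part of other cell types in the results was not tested. Tags were scaled to library depth and not to enrichment, so that a higher level between lists and a better enriched library cannot be told apart, nor can more nuclei with the mark and more of the mark per nucleus.

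In males, the 8 genes held 71, 12, 50 and 21 peaks in the vehicle, day 4, day 6 and day 8 lists. The corresponding female counts were 57, 67, 109 and 89. The counts at the members were thus lower than vehicle in the treated male lists and higher in the treated female lists, while the lists as a whole changed in length in the same directions (87600 vehicle peaks against 17482 to 32188 in males, 38861 against 67503 to 123249 in females). These directions did not hold under every setting. With only peaks of a fold over input of at least 4, female day 4 held 43 against 56 in vehicle. The median fold over all autosomal peaks was 4.80 at female day 4 and 10.7 in female vehicle. This cut therefore fell unequally on these lists as a whole, and the share of all peaks that it kept was not computed. With lists of equal length, female day 4 held 16 and day 8 held 20 against 22 in vehicle, and male day 6 held 21 and day 8 held 16 against 14. All 8 genes had at least 1 peak in 7 lists, and 6 had one in the male day 4 list, where Sgcb and Sgcd had none. Of the 476 peaks in the 8 lists together, 50 reached within 1 kb of a start and 368 of the others had their center in an intron. Another gene's start was nearer than that of the member for 91 peaks.

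**Figure D1:**
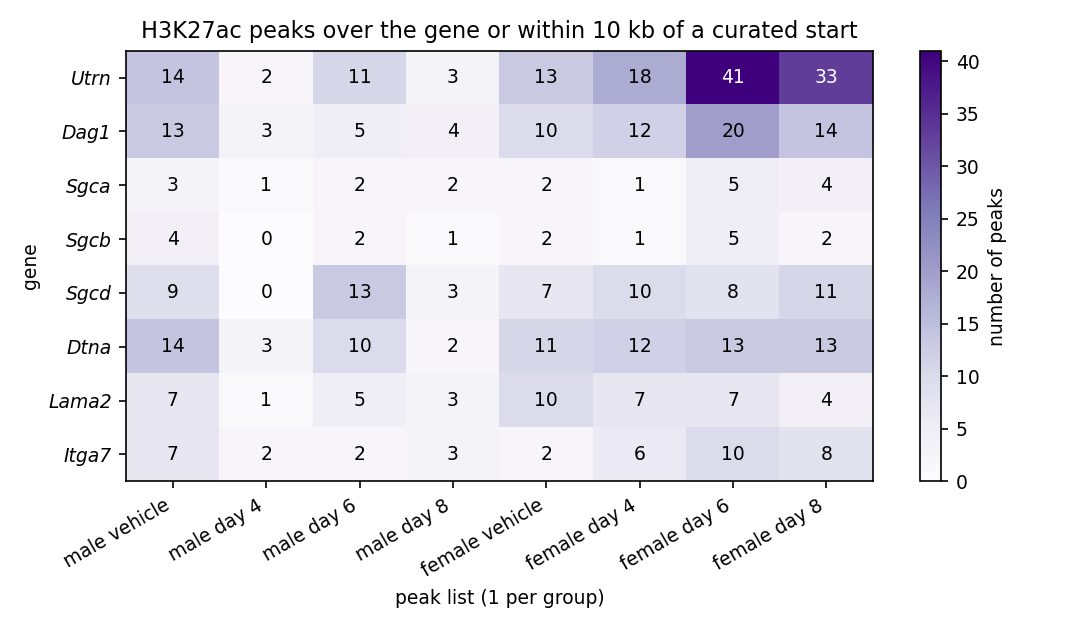
Number of H3K27ac peaks at each of the 8 genes (vertical axis) in each peak list (horizontal axis, 1 list per group), with darker shading for higher counts. Utrn rises to 41 and 33 peaks in the female day 6 and day 8 lists, and the male day 4 column holds 0 to 3 peaks per gene.

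Lama2, which encodes the laminin α chain of the muscle basement membrane, is the longest of the genes (636 kb, chr10:26981285-27616942). It had 7, 1, 5 and 3 peaks in the male vehicle, day 4, day 6 and day 8 lists and 10, 7, 7 and 4 in the female lists. Of 44 peaks in all, 36 had a width of 500 bp, the smallest the lists held at these genes. Peaks covered between 0.0776% (male day 4) and 0.776% (female vehicle) of its window. Of 40 regions formed by merging the peaks of all lists, 38 came from a single list, and 2 were marked in more than 1 group. An intronic region (chr10:27363948-27364748, 253 kb in) had 7.51 tags at female day 6 and 9.32 at female day 8. The start region (chr10:27616175-27617854) had 21.8 tags per 10 M in the male vehicle list (95% Poisson interval 17–27.6), none in the other male lists and in vehicle females, and 5.51 (3.63–8.02), 48.7 (41.2–57.1) and 35.3 (29.7–41.6) in treated females at days 4, 6 and 8. The female day 4 peak rested on 27 tags. The start of Lama2 was therefore marked in all treated female lists and in no treated male list.

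Dag1 encodes dystroglycan, the laminin receptor at the center of the complex (chr9:108204861-108263958, 59.1 kb). Its start had a peak in every list. Tags in the start peaks were 81.3 (71.6–91.8), 18.6 (10.2–31.2), 61.9 (55.2–69.2) and 43.3 (36.4–51.2) per 10 M in males and 82.8 (72.4–94.3), 146 (136–157), 262 (244–281) and 311 (294–329) in females, in the order vehicle, day 4, day 6 and day 8. Male and female vehicle values thus lay within each other's counting intervals, the treated male values were below and the treated female values above them. The width of the start peak ranged from 649 bp (male day 4) to 9304 bp (female day 8), and per kb of peak the tags ranged less, from 17.2 (male day 6) to 45.5 (female day 6). Its rank within the list also differed less, with 83.5% to 97.8% of all start peaks having fewer tags in the lists other than male day 4 (29.8%). Female vehicle had the highest rank.

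Peaks covered 43.1%, 57.9% and 54.5% of the Dag1 window in treated females, against 14.4% in vehicle females and 17.6%, 2.59%, 12.3% and 6.42% in males. A second Dag1 region had a peak in all 8 lists (chr9:108211180-108225549), 45.5 kb into the gene and nearer to the start of Bsn, a neuronal gene, but no base of it was shared by all 8. Its tags were 108, 21.3, 57.8 and 12.2 in males and 52.0, 148, 275 and 276 in females. For 27 of the 81 Dag1 peaks Bsn had the nearest start. A pair of intronic regions was found in all 3 treated female lists and in no other list. The distal one (chr9:108229430-108231648, 33.3 kb in) had 23.9, 13.7 and 33.5 tags at days 4, 6 and 8 and the proximal one (chr9:108250489-108253242, 11.9 kb in) had 16.5, 34.0 and 14.6.

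Itga7 encodes the integrin α chain that binds laminin on muscle fibers (chr10:128933813-128958286, 24.5 kb). A region over its start and first introns (chr10:128930690-128940092) had a peak in each list, at different places, with no base common to all 8. Its tags were 70.8, 50.5, 18.8 and 15.9 in males and 23.6, 88.8, 254 and 215 in females. Within 1 kb of the start, peaks were found in vehicle males (11.4, 7.97–15.8) and at male day 8 (8.73, 5.80–12.6), and in treated females at 53.7 (47.4–60.6), 146 (133–160) and 215 (201–230). Vehicle females had no start peak. The start of Itga7 was thus bare in vehicle females and covered by a single peak of 8583 bp at female day 8. The highest single peak at the 8 genes, 455.5 tags at female day 6 (chr10:128916539-128924517), was centered at -13.3 kb from the Itga7 start and nearest to Rdh5. An intronic region (chr10:128940437-128943018) was found in treated females only, with 6.94, 34.9 and 15.1 tags.

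**Figure D2:**
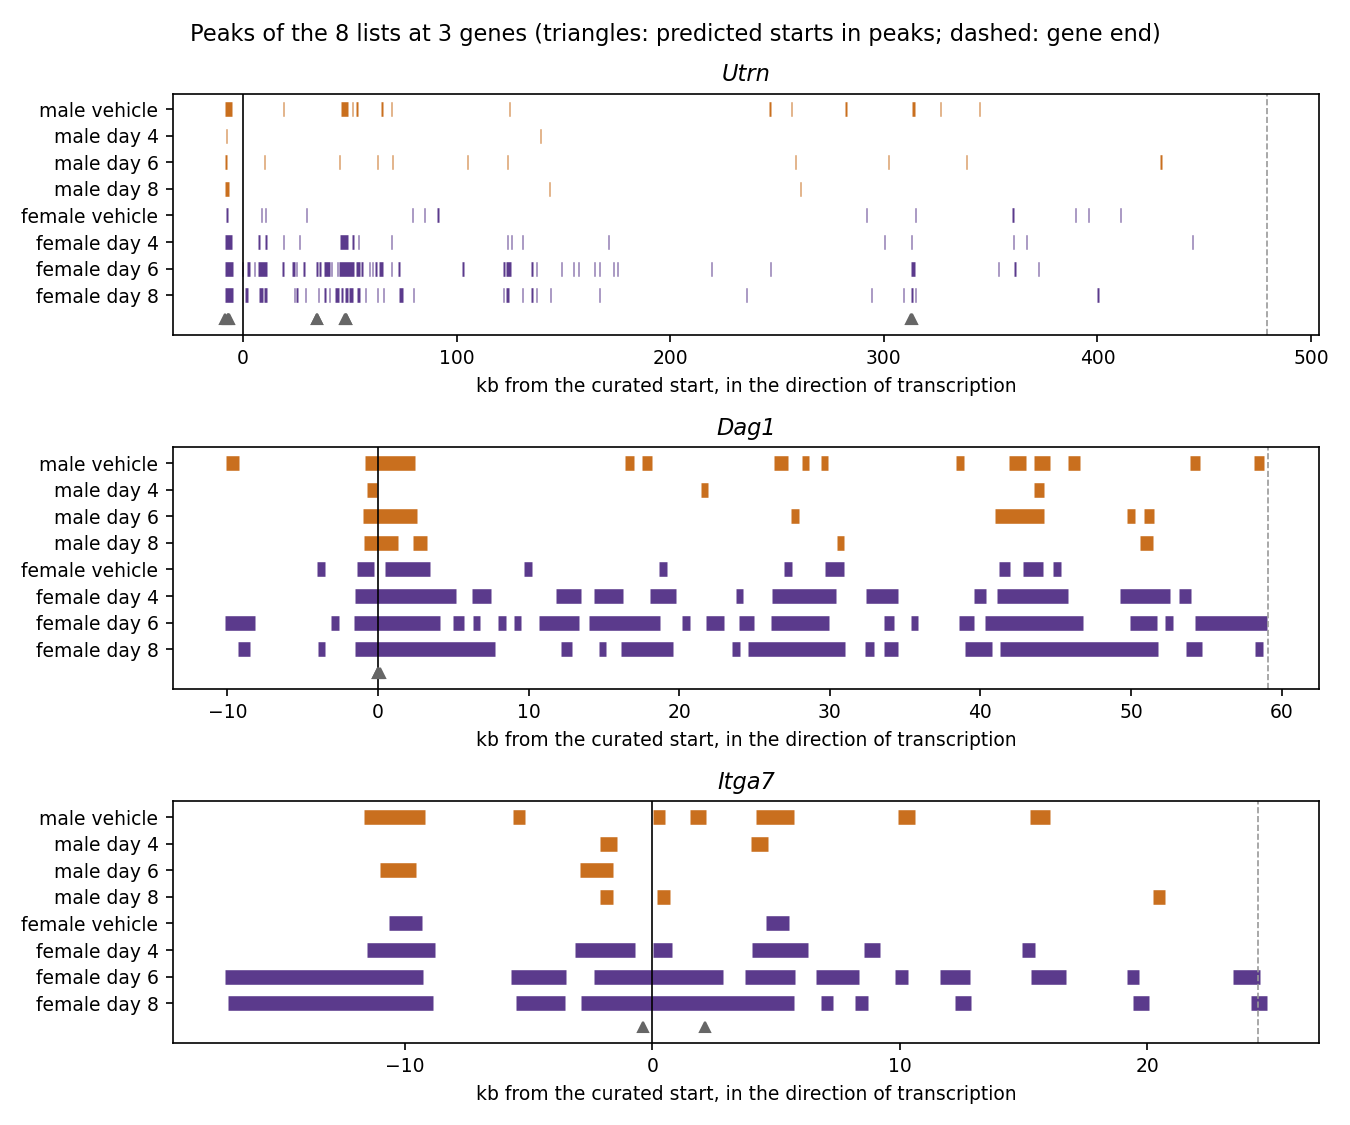
Peaks of the 8 lists (bars, orange for male and purple for female) at Utrn, Dag1 and Itga7 by distance in kb from the curated start in the direction of transcription; the solid line marks the start, the dashed line the gene end and triangles the predicted starts that lie in peaks. At Utrn the column of bars left of the curated start is present in all 8 lists, and only the female day 6 list has a peak over the start itself.

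Sgca, Sgcb and Sgcd encode α-, β- and δ-sarcoglycan, subunits of the sarcoglycan subcomplex. Their genes are of very unequal length, 13.6 kb for Sgca (chr11:94962777-94976327), 15 kb for Sgcb (chr5:73632749-73647737) and 408 kb for Sgcd (chr11:46971079-47379325). Sgca had a start peak in all 8 lists, with 126 (114–139), 53.2 (38.0–72.4), 23.5 (19.5–28.2) and 29.6 (24–36.2) tags per 10 M in males and 29.1 (23.1–36.2), 117 (107–127), 308 (289–329) and 273 (257–290) in females. Unlike Dag1, the vehicle groups of the sexes were far apart at this start, and vehicle females were within the counting interval of males at day 8. The bases shared by all 8 lists (chr11:94975372-94976408, 1037 bp) held the curated start, which in the Dag1 start region they did not (chr9:108264198-108264672, 475 bp). Hils1, a spermatid histone gene, overlaps the Sgca window and had the nearest start for 5 of its 20 peaks.

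The start of Sgcb was marked more weakly and in 5 lists. It had 9.17 (6.14–13.2) tags in vehicle males, 11.3 (8.54–14.6) at male day 6, and 12.9 (9.89–16.5), 41.5 (34.6–49.3) and 39.8 (33.8–46.5) in treated females at days 4, 6 and 8. It had no start peak in vehicle females or in males at days 4 and 8. Another gene, Spata18 or Lrrc66, had the nearest start for 10 of 17 Sgcb peaks.

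The peak within 1 kb of the Sgcd start had 43.6 (36.2–52.1) tags in vehicle females, 86.8 (78.7–95.4) at day 4, 72.5 (63.3–82.7) at day 6 and 39.8 (33.8–46.5) at day 8, and in males 12.7 (9.04–17.2) in vehicle and 7.91 (5.65–10.8) at day 6, with none at days 4 and 8. The region around this start (chr11:47374760-47379991) had more tags in all, 24.4, 0, 20.8 and 0 in males and 43.6, 86.8, 120 and 88.7 in females. At female days 6 and 8 it was split into 3 peaks each, of which 1 reached within 1 kb of the start. The first intron held a second region (chr11:47370802-47373815, 7.02 kb in) with a peak in 6 lists, at 15.2, 0, 12.7 and 6.55 tags in males and 0, 26.1, 14.4 and 36.3 in females. Over the whole gene 22 of 31 regions were found in 1 list each.

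**Figure D3:**
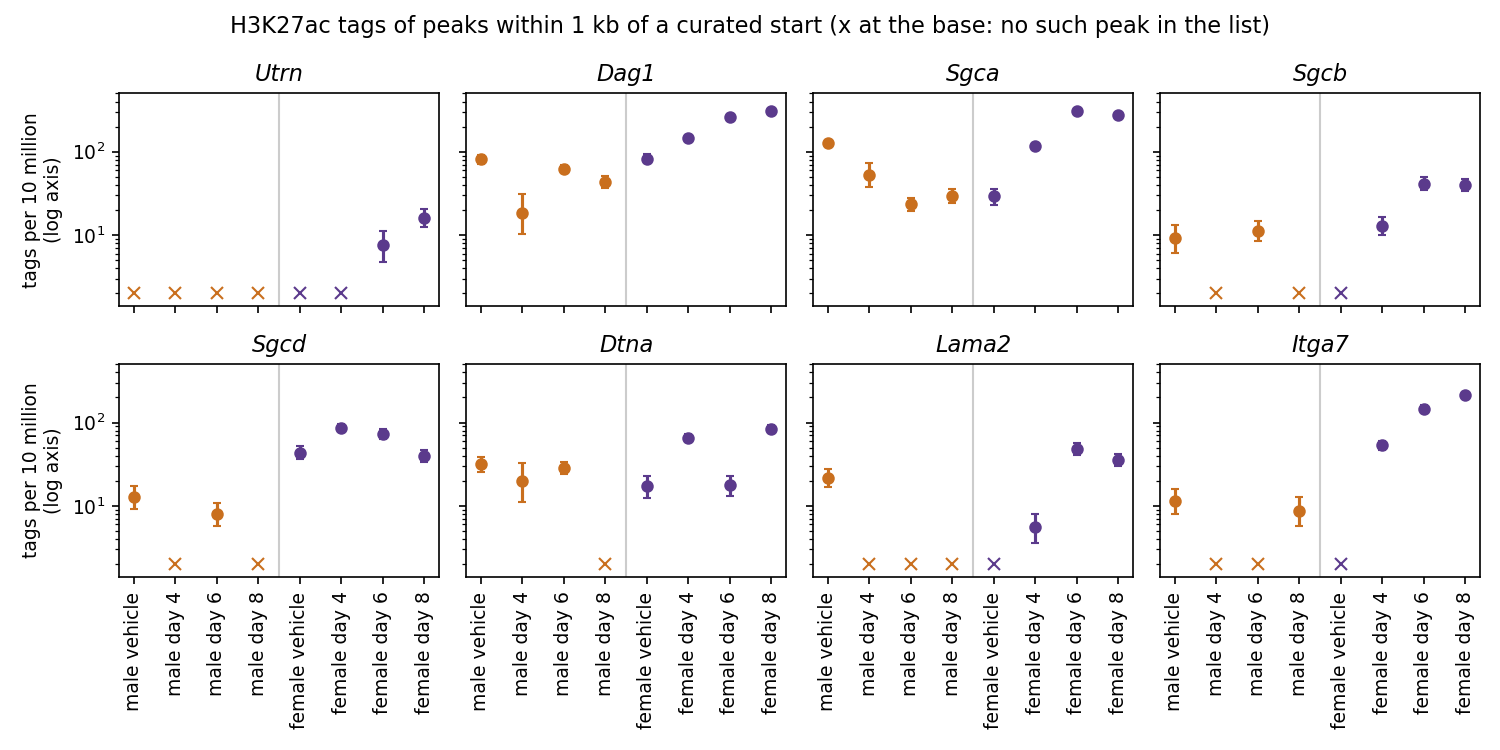
H3K27ac tags per 10 M (log axis) in peaks within 1 kb of a curated start of each gene, by list, with exact Poisson 95% intervals for the tags counted; an x at the base means that the list had no such peak. Dag1 and Sgca have values in all 8 lists, and the values of the treated female lists reach 311 at Dag1 and 308 at Sgca.

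Utrn encodes utrophin, the autosomal relative of dystrophin (chr10:12382188-12861735, 480 kb). It had the most peaks of the 8 genes, 14, 2, 11 and 3 in males and 13, 18, 41 and 33 in females. All 135 had a Utrn start as the nearest start. The curated start nevertheless had a peak within 1 kb in only 2 lists. These were female day 6 with 7.51 (4.76–11.3) tags, or 23 tags counted, and female day 8 with 16.1 (12.4–20.6). The female day 8 peak lay inside the gene and did not cover the start. Whether the curated start is the 5′ end of Utrn transcripts in these fibers was not tested, and this bears on its start peaks, its CG number and its E-boxes. A region upstream of it (chr10:12866549-12870044, centered at -6.56 kb from the start) had a peak in all 8 lists, with 73.4, 22.6, 16.0 and 28.4 tags in males and 22.5, 43.3, 213 and 96.2 in females. It holds 4 predicted RefSeq starts (12868317, 12868640, 12868645 and 12869888), and the bases shared by all lists lie 7.668 kb before the curated start. At male day 4 this peak rested on 17 tags. Counting predicted starts, 8, 4, 6 and 4 members had a start peak in males and 5, 8, 8 and 8 in females. The share of all genes was not computed with predicted starts, so these counts do not set the members apart.

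Further Utrn regions lay in introns. The highest of them (chr10:12809850-12818393, 47.6 kb into the gene) had 76.5, 0, 5.34 and 0 tags in males and 0, 58.6, 205 and 92.7 in females, and it also holds 3 predicted starts. A region 9.28 kb in (chr10:12850256-12854665) had 16.0, 25.1, 91.4 and 46.8 tags in females and 5.74 at male day 6 alone among the male lists. A region 314 kb in (chr10:12546415-12549198) had peaks in all female lists (9.81, 6.13, 44.4 and 23.4 tags) and in vehicle males (27.8), and its 2 predicted starts (12548674 and 12548937) lay under the peaks of the treated female lists only. Of 71 Utrn regions, 48 were found in females only, 12 in males only and 11 in both sexes, and 46 came from 1 list.

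Dtna encodes α-dystrobrevin, which binds dystrophin and utrophin on the inner side of the membrane (chr18:23310020-23659719, 350 kb, with 3 curated starts). It had 14, 3, 10 and 2 peaks in males and 11, 12, 13 and 13 in females. Start peaks were found in 7 lists, with 31.6 (25.7–38.5), 20 (11.2–32.9), 28.5 (24–33.5) and no tags in males and 17.1 (12.5–22.7), 64.7 (57.8–72.3), 17.6 (13.2–23) and 82.9 (74.1–92.3) in females. The female day 6 value lay within the interval of vehicle and below that of day 4. The start tags of Sgcd were also lower at female day 6 (72.5, 63.3–82.7) than at day 4 (86.8, 78.7–95.4), with overlapping intervals. The whole region around the Sgcd start had more tags at female day 6 (120 against 86.8). Start tags of Dag1, Sgca, Sgcb, Lama2 and Itga7 were higher at female day 6 than at day 4. The region of the middle start (chr18:23413747-23417061) held most of these tags. In introns 2 regions were found in treated females only, at 5.72, 11.4 and 16.1 and at 10.2, 8.82 and 8.56 tags. Mapre2 had the nearest start for 14 of 78 Dtna peaks.

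Counting genes with a peak within 1 kb of a start removes the part that gene length plays in the number of peaks. In males, 7 of 8 members had a start peak in the vehicle list (56.5% of all autosomal protein-coding genes), 3 at day 4 (33.0% of all), 5 at day 6 (33.0%) and 3 at day 8 (36.6%). In females, 4 had one in the vehicle list (30.3% of all genes), 7 at day 4 (55.4%), 8 at day 6 (71.2%) and 8 at day 8 (63.7%). With 8 genes, shares can move only in steps of 1 gene, and no difference was tested. Dag1 and Sgca, with a start peak in all 8 lists, shared that pattern with 17.3% of genes. Dtna lacked it only at male day 8 (a pattern of 1.21% of genes) and Sgcd at male days 4 and 8 (1.13%). Sgcb had it in 5 lists (1.56%) and Itga7 in another 5 (2.49%). Lama2 had it in the male vehicle and treated female lists (4.88%) and Utrn in the later female lists (4.27%). No member was without a start peak in every list, as 23.2% of genes were.

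The share of the windows under a peak was 2.65%, 0.40%, 1.97% and 0.764% at the 8 genes in males and 1.91%, 4.71%, 6.82% and 6.28% in females. For the windows of all genes it was 4.52%, 0.942%, 1.86% and 1.25% in males and 1.69%, 5.16%, 11.5% and 8.13% in females. The members were covered to between 0.424 (male day 4) and 1.13 (female vehicle) times the share of all windows, so their coverage rose and fell with that of the genome. Long introns weigh on this measure, since Lama2, Utrn, Sgcd and Dtna make up most of the windows. In the female day 6 list, coverage ran from 0.666% of the Lama2 window to 57.9% of the Dag1 window.

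**Figure D4:**
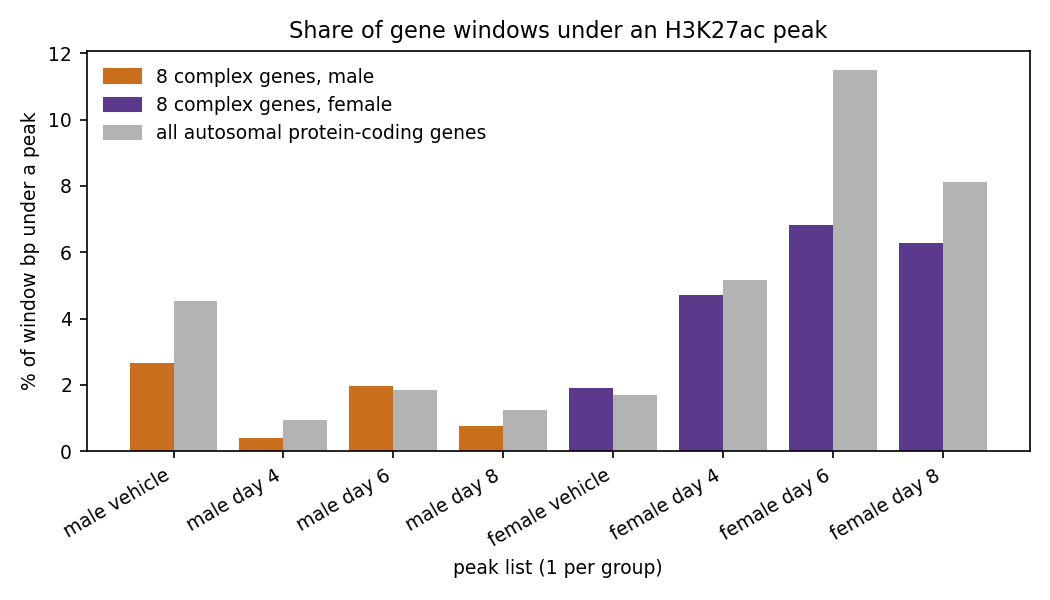
Percentage of the bp in gene windows under an H3K27ac peak in each list, for the 8 genes (orange for male and purple for female) and for all autosomal protein-coding genes (gray). The bars of the 8 genes are above those of all genes in male day 6 (1.97% against 1.86%) and female vehicle (1.91% against 1.69%) and below in the other lists.

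Day 4 peaks that overlapped no vehicle peak of the same sex are called prednisone-responsive enhancers (PREs), the study's term. In males, 5 of 12 day 4 peaks at the members were PREs (41.7%, Wilson 95% confidence interval 19.3%–68.0%), beside 45.5% of all autosomal peaks. They lay at Utrn, Dag1, Dtna, Lama2 and Itga7. In females, 50 of 67 were PREs (74.6%, 63.1%–83.5%), beside 81.8% of all, with 15 at Utrn, 8 each at Dag1 and Dtna, 7 each at Sgcd and Lama2, 4 at Itga7, 1 at Sgcb and 0 at Sgca. The members' shares lay near those of all peaks in both sexes.

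Many female PREs were present later, at the members and over all peaks alike. At day 6, 28 of 50 overlapped a peak (56.0%, 42.3%–68.8%), beside 50.6% of all female PREs, and at day 8, 27 of 50 did (54.0%, 40.4%–67%), beside 43.9%. Both later lists held 22 (44.0%, 31.2%–57.7%), beside 37.9% of all female PREs. By gene, all 8 Dag1 PREs were present at day 8 and 7 of them on both days. At Utrn 6 of 15 and at Dtna 4 of 8 were present on both days, but at Lama2 only the start PRE was (1 of 7) and at Sgcd only the PRE in the first intron (1 of 7). These counts by gene were not set beside those of other genes. In males, 1 of 5 PREs, at -1.78 kb from the start of Itga7, was present at day 6 (20%, 3.62%–62.4%, beside 5.80% of all male PREs) and also at day 8 (beside 4.95%), while 1.65% of all male PREs were present on both days. A share of 5 peaks sets no order between the sexes.

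Peaks of the later lists were compared with vehicle in the same way. Of the male peaks at the members, 37 of 50 at day 6 (74.0%, 60.4%–84.1%, beside 63.8% of all peaks) and 15 of 21 at day 8 (71.4%, 50.0%–86.2%, beside 47.1%) had no vehicle peak. Of the female peaks, 93 of 109 at day 6 (85.3%, 77.5%–90.8%, beside 89.5%) and 68 of 89 at day 8 (76.4%, 66.6%–84.0%, beside 84.1%) had none. The share of all peaks lay within the members' interval at day 6 in both sexes. It lay below the interval at male day 8, a list with 21 member peaks, and just above it at female day 8. Neighboring peaks of a gene are not independent, and 33 of the 89 female day 8 peaks lay at Utrn. The intervals are therefore too narrow for a difference to be read from them, and none was tested.

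Most vehicle peaks at the members were absent from the treated male lists. Of 71 male vehicle peaks, 63 had no counterpart at day 4 (88.7%, 79.3%–94.2%, beside 89.7% of all vehicle peaks), 57 at day 6 (80.3%, 69.6%–87.9%, beside 86.9%) and 67 at day 8 (94.4%, 86.4%–97.8%, beside 88.0%). Of 57 female vehicle peaks, 35 had none at day 4 (61.4%, 48.4%–72.9%, beside 62.7%), 36 at day 6 (63.2%, 50.2%–74.5%, beside 59.5%) and 32 at day 8 (56.1%, 43.3%–68.2%, beside 58.1%). All 6 background shares lay within the members' intervals.

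When the peaks of all lists were merged, the 8 genes had 225 regions, of which 151 came from 1 list (67.1%, beside 70.4% of the 246108 autosomal regions merged in the same way). In 6 or more lists 12 regions were found (5.33%, beside 4.44%), and 5 in all 8 (2.22%, beside 1.71%). These 5 were the upstream Utrn region, the start region and the distal region of Dag1, and the start regions of Sgca and Itga7. By sex, 123 regions were found in females only (54.7%, beside 56.6% of all regions), 59 in males only (26.2%, beside 24.4%) and 43 in both (19.1%, beside 19.0%), so that these shares were near those of all regions. No region was found in all 4 lists of a sex and in none of the other (beside 0.232%). In females 14 regions were in all 3 treated lists and not in vehicle (6.22%, beside 6.48%). Of these, 5 were in no other list (2.22%, beside 1.86%), 2 at Dag1, 2 at Dtna and 1 at Itga7. In males 0 regions were in all 3 treated lists and not in vehicle (beside 0.0309%). Merged regions depend on list length, and the male lists were shorter after treatment.

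The promoter table held 6 of the 8 genes (7 curated starts), without Itga7 and Dtna. None of these 7 promoters, from 250 bp before to 50 bp after the start, had a match to ACANNNTGT (6.01% of 20063 promoters), to the MEF2 consensus (2.63%) or to TTCCGG (19.1%). E-boxes, found in 68.7% of promoters, were most numerous before the curated Utrn start, with 7, of which 2 overlap each other and CACGTG lies 139 to 134 bp before the start. Sgca and Sgcd had 2 each, Lama2 and each Dag1 start 1 and Sgcb 0. In the central 300 bp of the 50 female PREs, ACANNNTGT was found in 6 (12%, beside 9.35% of 54197 female PREs), the MEF2 consensus in 4 (8.00%, beside 3.44%), CANNTG in 40 (80.0%, beside 81.5%) and TTCCGG in 2 (4.00%, beside 5.16%). Of the 6 with ACANNNTGT, the proximal Dag1 intron (ACATAGTGT) and the Sgcd intron (ACAAGATGT) are printed above. Of the 5 male PREs, the MEF2 consensus was found in 2 (beside 4.19% of male PREs) and CANNTG in 2 (beside 77.2%), with none for ACANNNTGT (beside 7.75%) and TTCCGG (beside 3.34%).

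Other genes of the pathway were counted from fixed lists by their start peaks. Over all autosomal protein-coding genes, the share with one was 56.5%, 33.0%, 33.0% and 36.6% in males (vehicle, day 4, day 6 and day 8). In females it was 30.3%, 55.4%, 71.2% and 63.7%, so the share of all genes was also higher in the treated female lists. Of 9 further subunits and membrane partners of the complex, 6, 3, 6 and 5 had a start peak in males and 3, 5, 8 and 8 in females. Nos1, which encodes neuronal nitric oxide synthase, had one in none of the lists. Of 7 basement membrane and integrin partners, 5, 4, 3 and 5 had one in males and 3, 6, 7 and 6 in females. The laminin chains Lamb2 and Lamc1 and the integrin chain Itgb1, partners of the Lama2 and Itga7 products, were marked in all 8 lists, and Agrn (agrin, a dystroglycan ligand) had the same pattern as Itga7. Of 13 genes for the glycosylation of dystroglycan, on which laminin binding depends, 11, 8, 6 and 6 had one in males and 13, 13 and 13 in treated against 7 in vehicle females. Pomt1, Pomt2, Pomgnt1 and B3galnt2 were marked in all 8 lists. Pomk and Rxylt1 had the pattern of Lama2.

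Each member was also matched to the autosomal gene whose summed tags over the 8 lists were most like its own, by the mean absolute difference in log2(summed normalized tags + 1). The closest was Hils1 for Sgca (0.05), with which it shares peaks. The others were Supt3 for Sgcb (0.13), Tppp2 for Dag1 (0.18), Ppp1r12c for Itga7 (0.18), Nrap for Utrn (0.21), Slc35d1 for Sgcd (0.29), Rarb for Dtna (0.36) and Tti2 for Lama2 (0.37). Nrap encodes an actin-binding protein of striated muscle. Its sums were 329, 31.9, 61.4 and 41.1 in males and 91.2, 247, 1192 and 595 in females, those of Utrn 302, 38.6, 69.0 and 40.2 and 130, 209, 1177 and 484. Nrap was picked by these same sums, so the highest sum of both genes at female day 6 is no separate result.

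The lists were finally set to equal length by keeping the 17482 peaks with the highest score in each. The 8 genes then held 14, 12, 21 and 16 peaks in males and 22, 16, 24 and 20 in females. In this form, the day 6 and day 8 lists of males held more peaks than vehicle and the day 4 and day 8 lists of females fewer, so that the opposite directions of the sexes were not kept. The female lists held more member peaks than the male lists at each point. Members with a start peak were 2, 3, 4 and 3 in males and 3, 4, 5 and 5 in females. The share of all genes with a start peak was not computed for lists of this length.

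**Figure D5:**
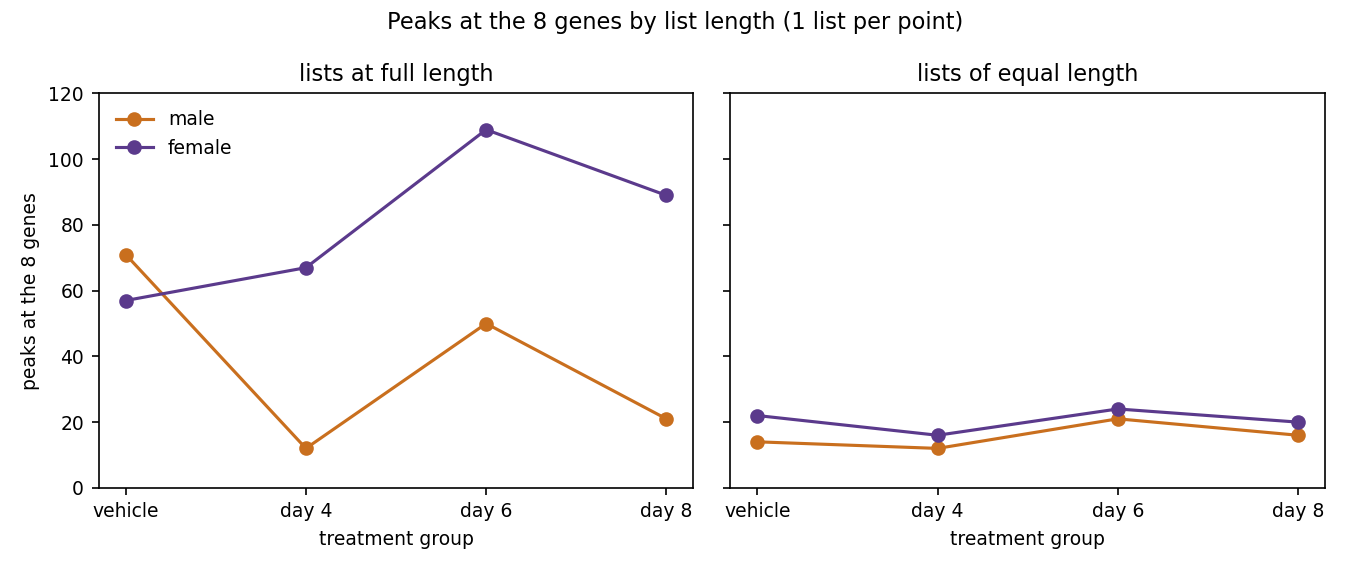
Peaks at the 8 genes (vertical axis, number) by treatment group for males (orange) and females (purple), with each list at its full length (left) and with each list limited to its 17482 peaks of highest score (right). On the left the female line rises from 57 to 109 and the male line falls from 71 to 12; on the right the counts lie between 12 and 24.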

How the data were processed

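The authors isolated myofibers with collagenase, immunoprecipitated H3K27ac and, per their methods and processing notes, aligned reads to mm10 (Bowtie2 2.2.6; TopHat2 2.1.0 is also listed) and called peaks with HOMER findPeaks in histone style against input, with a fold of at least 2. The deposited files are 8 peak lists from 24 libraries, with 1 list for each group; the way in which replicate libraries were joined is not given in the sources used here. The deposited normalized tag count is a signal scaled to 10 M tags. The findPeaks score deposited by the authors was used to rank peaks, and the deposited ratio of tags over input (fold) to filter them. The deposited p-value and clonal fold of each peak were not used. All measurement columns were mapped to a group (0 were not).

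Depth was recovered from the step between low normalized tags (100% of low values whole), except in the male day 4 and female day 6 lists. Those give whole H3K27ac tags, and their depth was taken from the median ratio of whole to normalized tags, without the step. Transcripts, promoters and sequences were from RefSeq GRCm38.p6, on which 1004 of 1004 promoters compared were identical to the genome. Starts were those of curated transcripts. Members and gene lists were chosen with earlier results of these data known. The text names all members, pathway genes marked in all lists or in none or with the mixed pattern of a member, the closest gene by summed tags, and regions by their presence over lists. Some genes that this rule would name are not reported here. The Itga7 peak with the highest tags was chosen once values had been seen. Sequences printed were limited to stretches outside exons. With 1 list per group, no test was made; Wilson and exact Poisson 95% intervals cover counting error only. Overlap, window and motif steps were tested on simulated data (6 of 6 recovered). Alternatives were a fold of at least 4, lists of equal length, predicted transcripts, other windows and other definitions of a start peak and of a shared peak. Software was samtools 1.23.1 and Python 3.11.15 with pysam 0.24.0, scipy 1.17.1, matplotlib 3.10.9, pandas 2.3.3 and numpy 2.4.6.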

Additional observations from a re-analysis of the deposited data

Results flagged for a closer look

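The treated lists of the sexes lay on opposite sides of their vehicle lists, which was noted because each treated male list moved one way and each treated female list the other. The ratio of peaks at the 8 genes to those of the vehicle list was 0.169 in males and 1.18 in females at day 4, 0.704 and 1.91 at day 6 and 0.296 and 1.56 at day 8. For the number of members with a start peak, these ratios were 0.429 and 1.75 at day 4, 0.714 and 2.00 at day 6 and 0.429 and 2.00 at day 8. The difference between the sexes was not tested, since each group had 1 pooled list, and the lists as a whole differed in length in the same directions. With lists of equal length, the peak counts of male days 6 and 8 lay above vehicle and those of female days 4 and 8 below it. With a fold over input of at least 4, female day 4 lay below vehicle, but that cut fell unequally on the lists as a whole.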

How the results depend on the processing

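Of 102 values recomputed under other settings, 70 stayed within 1.5 times the reported count and 32 moved further. With each list limited to its 17482 peaks of highest score, the peaks at the 8 genes moved to 14 (male vehicle), 21 (male day 6), 22 (female vehicle), 16 (female day 4), 24 (female day 6) and 20 (female day 8), members with a start peak to 2 (male vehicle), 4 (female day 4), 5 and 5 (female days 6 and 8), and PREs to 8 in males and 11 in females. This setting keeps fewer peaks of every list but male day 4. It turned the direction of the peak count against vehicle for male days 6 and 8 and female days 4 and 8, and that of the start count for all 3 male lists. With a fold over input of at least 4, peaks at female day 4 moved to 43, below the 56 of vehicle. Start counts moved to 4 (male vehicle) and 3 (male day 6), and female PREs to 31. The median fold over all autosomal peaks was 4.80 at female day 4 and 10.7 in female vehicle, so this cut fell unequally on them. Within 10 kb of a start only, peaks were 21, 6, 16 and 9 in males and 16, 18, 33 and 24 in females and PREs 1 and 11, a smaller window by construction. When the peak had to cover the start, counts moved to 1 (male day 4), 3 (male day 6) and 1 (female vehicle). With any peak within 10 kb of a start counted, they moved to 5 (male day 4), 6 (male day 8) and 7 (female vehicle). Apart from the window and list length settings, the cause was not tested. Counts stayed within 1.5 times with predicted transcripts added, with gene bodies only, with peaks nearest to the member only, and with 50% of a day 4 peak covered. No paired analysis was possible because each group has 1 pooled list, and for the same reason no replicate could be left out. The male day 4 list had the lowest depth, and peaks absent there may have been below what it could detect.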
